A study of Homo sapiens with 6 samples.

Results

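The clustered protocadherin genes were followed in UE7T-9 cells with and without SHC4 overexpression. Members were chosen by symbol: protein-coding genes named PCDHA, PCDHB or PCDHG followed by an isoform number or by A, B or C and a number. Of 28181 genes listed, 45 were members (8 PCDHA, 15 PCDHB and 22 PCDHG), out of 53 annotated in GENCODE 29. PCDHA3, PCDHA5, PCDHA6, PCDHA8, PCDHA11, PCDHA12, PCDHA13 and PCDHB1 were not listed in any library and were not analysed here. UE7T-9 is a human bone marrow-derived mesenchymal stem cell line, immortalized with telomerase reverse transcriptase and human papillomavirus E7, which all 6 libraries share. UE7T-9 SHC4 (labelled genotype SHC4-OE) carried a lentiviral CMV vector expressing SHC4, a SHC-family signalling adaptor, and UE7T-9 Cont (titled Nontarget, labelled genotype WT) was described in the methods as the same vector expressing GFP. Label and methods thus describe the control differently, and the sources do not settle which holds. RNA of 3 libraries per group was sequenced. The design text speaks of established SHC4 clones. Whether the 3 libraries of a group came from separate clones, infections or cultures is not stated, so p-values measure only the spread between these libraries, which may be technical.

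Clustered protocadherins are cadherin-superfamily proteins of the cell surface that bind identical isoforms on neighbouring cells, and are best known for self-recognition of neurites. Each PCDHA and PCDHG gene has its own promoter and first exon, which is spliced to constant exons shared by its cluster, whereas a PCDHB gene is a single exon. In neurons most promoters are chosen at random, cell by cell, through CTCF, cohesin and DNA methylation. In dividing cells such a choice can be passed on, so the set of isoforms expressed can mark the descendants of a single cell. The C-type isoforms (PCDHAC1, PCDHAC2, PCDHGC3, PCDHGC4 and PCDHGC5) differ from the others in sequence and are less subject to random choice.

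The listed members lay in tandem on the plus strand of chromosome 5 in GRCh38, with PCDHA at chr5:140786136-141012347, PCDHB at chr5:141094578-141249365 and PCDHG at chr5:141330571-141512981. The constant exons common to all PCDHA genes held 2866 bases and those common to all PCDHG genes 2181 bases. Clustered protocadherin promoters are known for a conserved element with the core letters CGCT. These 4 letters alone were searched, in RefSeq promoters of GRCh38.p14 (250 bases before to 50 after the start). Of the 45 members, 41 had a promoter there. CGCT starting 100 to 30 bases before the start, on the strand of the gene, was found in 37 of the 41 (90.2%), against 21.6% of 35116 promoters of all genes. On either strand and anywhere in the 300 bases it was found in 40 of 41 (97.6%), against 70.0% of all promoters. A match is a description of letters, not a measured binding site, and was not shown to be the conserved element. The windows of 40 bases below belong to the members the results turn on, and capitals mark the match nearest 50 bases before the start.
PCDHA1: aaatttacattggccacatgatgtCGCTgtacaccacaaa
PCDHA7: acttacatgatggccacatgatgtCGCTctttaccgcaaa
PCDHA10: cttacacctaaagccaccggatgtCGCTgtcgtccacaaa
PCDHB2: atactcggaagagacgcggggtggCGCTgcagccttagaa
PCDHB16: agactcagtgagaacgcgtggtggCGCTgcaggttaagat
PCDHGA2: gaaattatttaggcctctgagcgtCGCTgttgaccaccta
PCDHGA3: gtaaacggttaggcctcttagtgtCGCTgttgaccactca
PCDHGA7: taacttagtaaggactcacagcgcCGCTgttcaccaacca
PCDHGB5: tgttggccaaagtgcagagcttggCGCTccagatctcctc
PCDHGA10: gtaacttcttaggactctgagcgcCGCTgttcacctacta
PCDHGB7: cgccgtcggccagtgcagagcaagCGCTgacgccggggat
PCDHGC3: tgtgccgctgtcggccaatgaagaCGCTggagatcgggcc

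Longer words around this core were chosen after the member promoters were seen. Their shares among members therefore describe that choice and are not a test of enrichment. The promoters of all genes include those of the members. TGGCGCT started 100 to 30 bases before the start in 13 of 41 member promoters (31.7%) and in 0.590% of all promoters, and CGCTGT, which can overlap it, did so in 21 of 41 (51.2%) against 1.54%. In the lines above, PCDHB2, PCDHB16 and PCDHGB5 hold the first word, and PCDHA1, PCDHA10, PCDHGA2, PCDHGA3, PCDHGA7, PCDHGA10 and PCDHGC3 hold the second. The 250 bases before the RefSeq start are given below for PCDHGA10 (chr5:141412737-141412986) and PCDHB16 (chr5:141182137-141182386), 1 member higher and 1 lower in UE7T-9 SHC4, both on the plus strand with CGCT in capitals.
PCDHGA10 promoter: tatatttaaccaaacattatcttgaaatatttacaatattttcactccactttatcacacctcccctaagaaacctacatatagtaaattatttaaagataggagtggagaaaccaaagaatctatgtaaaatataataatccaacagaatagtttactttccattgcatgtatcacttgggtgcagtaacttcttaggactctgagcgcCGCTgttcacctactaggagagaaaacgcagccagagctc
PCDHB16 promoter: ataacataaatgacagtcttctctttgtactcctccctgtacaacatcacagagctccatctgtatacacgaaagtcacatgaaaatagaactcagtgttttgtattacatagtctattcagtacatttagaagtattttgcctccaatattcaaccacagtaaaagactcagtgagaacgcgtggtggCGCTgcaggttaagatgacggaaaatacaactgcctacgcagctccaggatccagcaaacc

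Below, UE7T-9 Cont is also called the control line and its libraries Cont 1 to Cont 3, and those of UE7T-9 SHC4 are SHC4 1 to SHC4 3. Values are normalized counts, that is, the read count of a gene divided by the size factor of its library. Between 18144993 and 27721397 reads were assigned to genes per library. SHC4 itself, the check of the labels, was at 56.5, 157 and 130 in the control line, and at 134870, 119166 and 155006 with SHC4 overexpressed. The stromal markers NT5E, THY1 and ENG were high in every library (2286 or more), with a summed level of 27753 to 31176 in control libraries and 28127 to 30215 in SHC4 libraries. THY1 alone was at 7742, 2940 and 2286 for the control line, against 7845, 9570 and 7512 with SHC4 overexpressed (log2 fold change 1.15, limma adjusted p = 0.234), so Cont 1 lay with the SHC4 libraries. The part of these marker levels in the results below was not tested. Of the markers that stromal cells lack, the leukocyte marker PTPRC did not exceed 6.82, but HLA-DRA was at 72.8 to 262, and the summed level of 5 such markers (PTPRC, CD34, CD14, ITGAM and HLA-DRA) was 218 to 407 per control library, against 274 to 346 per SHC4 library. Of the neuron markers, STMN2 was not listed and RBFOX3 did not exceed 5.89, while SNAP25 (164 to 364), SYT1 (232 to 471) and TUBB3 (25.6 to 60.6) were detected. SYP, a synaptic vesicle protein, was at 3.90, 1.18 and 13.8 for the control line, against 23.7, 25.8 and 15.1 with SHC4 overexpressed, and the groups did not overlap (limma adjusted p = 0.244). The summed level of the 5 listed neuron markers was 515 to 752 per control library, against 453 to 757 per SHC4 library. In bulk RNA, fewer cells expressing an isoform and less RNA per cell cannot be told apart.

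The UE7T-9 cell populations expressed many clustered protocadherins, and the isoforms on were largely shared by the 6 libraries. Bulk RNA cannot tell whether single cells expressed many of them at once. A member was called on at a normalized count of at least 50, off below 10 and low between. By this measure 26 of 45 members were on in at least 1 library (11 PCDHB and 15 PCDHG), and 20 of them (8 PCDHB and 12 PCDHG) were on in all 6. Those 20 are 76.9% of the members ever on, and 88.5% of all genes ever on were on in all 6. Across these 20 members the highest library exceeded the lowest by 1.51 to 3.91 times, with a median of 2.04.

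No member was on in every library of one group and off in every library of the other, a pattern found in 0.0149% of the 13418 genes ever on (2 genes). None of the 26 members ever on was off in any library, against 1.26% of genes. The number of isoforms on was 24, 24 and 22 for the control line, against 24, 25 and 24 with SHC4 overexpressed. The mean number differed by 1 isoform (exact permutation p = 0.6, two-sided; the smallest p that 3 against 3 allows is 0.1). The set of isoforms on still differed by a few genes between libraries, as 6 members were on in some libraries and low in the others.

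**Figure D1:**
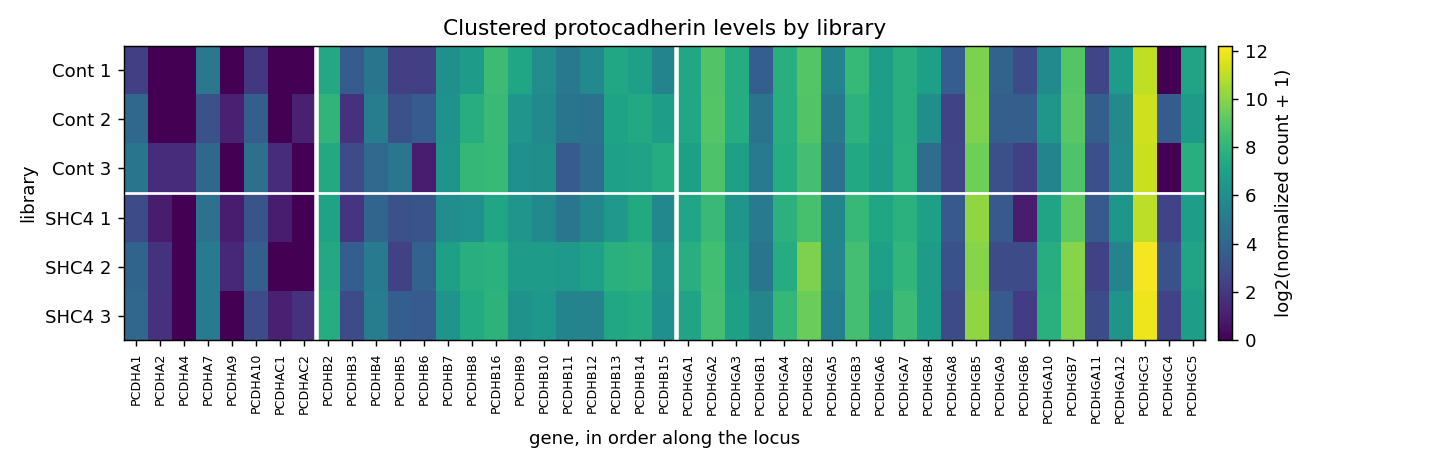
Level of each of the 45 listed members, in order along chromosome 5, in the 3 UE7T-9 Cont and 3 UE7T-9 SHC4 libraries. Colour is log2(normalized count + 1), and white lines part the clusters and the groups. PCDHA members are dark in every library, PCDHGC3 is the brightest column, and bright and dark columns run through both groups.

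Of these 6 members, 4 were on in 5 libraries. PCDHB15 was at 43.9, 114 and 185 in the control line, and at 50.1, 79.1 and 68.7 with SHC4 overexpressed, so it was low only in Cont 1. PCDHGB4 was at 118, 63.6 and 19.7 in the control line, and at 120, 107 and 102 with SHC4 overexpressed. It was low only in Cont 3, and the groups overlapped. PCDHGA12 was at 102, 53.0 and 59.0 in the control line, and at 87.9, 43.3 and 79.2 with SHC4 overexpressed, below 50 only in SHC4 2. The fourth, PCDHGA10, was below 50 only in Cont 3 and is described below.

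The remaining 2 were neighbouring PCDHB genes that were highest in SHC4 2. PCDHB11 was at 29.2, 25.9 and 10.8 in the control line, and at 26.4, 93.2 and 44.3 with SHC4 overexpressed, and SHC4 2 was the only library in which it was on. PCDHB12 was at 54.6, 23.5 and 19.7 in the control line, and at 49.2, 127 and 43.1 with SHC4 overexpressed, and was on in Cont 1 and SHC4 2. For both the groups overlapped. PCDHB11 had a log2 fold change (UE7T-9 SHC4 over UE7T-9 Cont) of 1.2 with a standard error of 0.53 and a limma adjusted p of 0.344.

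The PCDHA cluster was nearly silent. No PCDHA member was on in any library. PCDHA2, PCDHA4, PCDHA9, PCDHAC1 and PCDHAC2 were off in all 6, with at most 3 reads each in a library, and 3 reads correspond to a normalized count of 2.5 to 3.53. PCDHA7, the highest member of the cluster, was at 27.3, 7.06 and 15.7 in the control line, and at 22.9, 30.8 and 31.4 with SHC4 overexpressed. It was off in Cont 2 alone, on 6 reads, and the groups overlapped. PCDHA1 was at 3.90, 16.5 and 25.6 in the control line, and at 6.15, 14.2 and 15.1 with SHC4 overexpressed, and PCDHA10 at 2.92, 11.8 and 21.6 and at 7.91, 11.7 and 5.82. Both were lowest in Cont 1 and highest in Cont 3. The summed PCDHA level was 46.9 ± 19.1 for UE7T-9 Cont, against 52.8 ± 11.6 for UE7T-9 SHC4 (SD, n = 3; exact permutation p = 0.8).

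The PCDHB cluster was expressed at an intermediate level. Its highest members were PCDHB16, PCDHB2 and PCDHB8 in mean normalized count. Divided by the exon bases that no other annotated gene shares, their mean levels over the 6 libraries were 68.2, 50.9 and 67.4 per kilobase, against 7.71 for PCDHA7. For PCDHB16 this left 3754 of 5001 exon bases, so its rank beside PCDHB8 depends on this choice. PCDHB2 was at 164, 248 and 169 in the control line, and at 135, 166 and 187 with SHC4 overexpressed. PCDHB8 was at 101, 192 and 278 in the control line, and at 71.2, 198 and 177 with SHC4 overexpressed. Both overlapped between groups, and PCDHB8 was lowest in replicate 1 of either group. Of the 100-base words in the unshared exon of PCDHB8, 25.6% occurred in other genes, the largest share of any member. The share was 13.7% for PCDHB2, 18.0% for PCDHA7 and 3.07% for PCDHB16, so the first 3 counts may be less certain. PCDHB3, PCDHB4, PCDHB5 and PCDHB6 were on in no library. PCDHB2, the first listed gene of the cluster, and PCDHB7 to PCDHB10 after them were on in all 6. The summed PCDHB level was 1425 ± 97.5 for UE7T-9 Cont, against 1367 ± 379 for UE7T-9 SHC4 (SD, n = 3; exact permutation p = 0.8), and the lowest and the highest sum were both in UE7T-9 SHC4.

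PCDHG was the most highly expressed cluster, led by the C-type isoform PCDHGC3. PCDHGC3 was at 2101, 2582 and 2356 in the control line, and at 2045, 4236 and 3790 with SHC4 overexpressed. SHC4 2 and SHC4 3 lay above every UE7T-9 Cont library while SHC4 1 lay below all of them, and the log2 fold change was 0.45 (standard error 0.25, limma adjusted p = 0.439). Its mean level was 877 per kilobase of unshared exon, and the next were PCDHGB5 at 365, PCDHGB7 at 242 and PCDHGB2 at 213. PCDHGC3 alone made up 30.9% to 42.8% of the per-kilobase total of PCDHG in a library.

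The other C-type isoforms were not expressed alike. PCDHGC5 was on in all 6 libraries, at 138, 100 and 205 in the control line, and at 108, 137 and 111 with SHC4 overexpressed, with overlapping groups. PCDHGC4 was at 0, 10.6 and 0 in the control line, and at 4.39, 7.49 and 4.66 with SHC4 overexpressed, on 9 reads at most. PCDHAC1 (0, 0 and 1.97 against 0.88, 0 and 1.16) and PCDHAC2 (0, 1.18 and 0 against 0, 0 and 2.33) stayed at or below 2 reads in every library. Since PCDHGC4 had no read in Cont 1 and Cont 3, reads in the constant exons that it shares with PCDHGC3 had not been added to every gene of the cluster.

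Other PCDHG isoforms that were on in no library were PCDHGB1, PCDHGA5, PCDHGA8, PCDHGA9, PCDHGB6 and PCDHGA11. Earlier in the cluster, from PCDHGA1 to PCDHGB4, only PCDHGB1 and PCDHGA5 were on in no library. In the stretch from PCDHGB5 to PCDHGA11, expressed and nearly silent genes alternated, here in normalized counts per kilobase of unshared exon. PCDHGB5 (276 to 437) was followed by PCDHGA9 (2.27 to 5.31) and PCDHGB6 (0.19 to 2.56), then by PCDHGA10 (9.92 to 48.0) and PCDHGB7 (165 to 358), then by PCDHGA11 (1.34 to 3.24). These ranges over 6 libraries did not overlap between the silent genes and their expressed neighbours. The summed PCDHG level was 6070, 6501 and 5707 for the control line, against 6152, 9313 and 8971 with SHC4 overexpressed. SHC4 1 fell within the range of UE7T-9 Cont and the other two lay above it (log2 ratio of means 0.42, exact permutation p = 0.2). With PCDHGC3 left out, a choice made after seeing that SHC4 1 was its lowest library, the sums were 3969, 3919 and 3351 against 4107, 5077 and 5181, which did not overlap (exact permutation p = 0.1, the smallest possible).

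**Figure D2:**
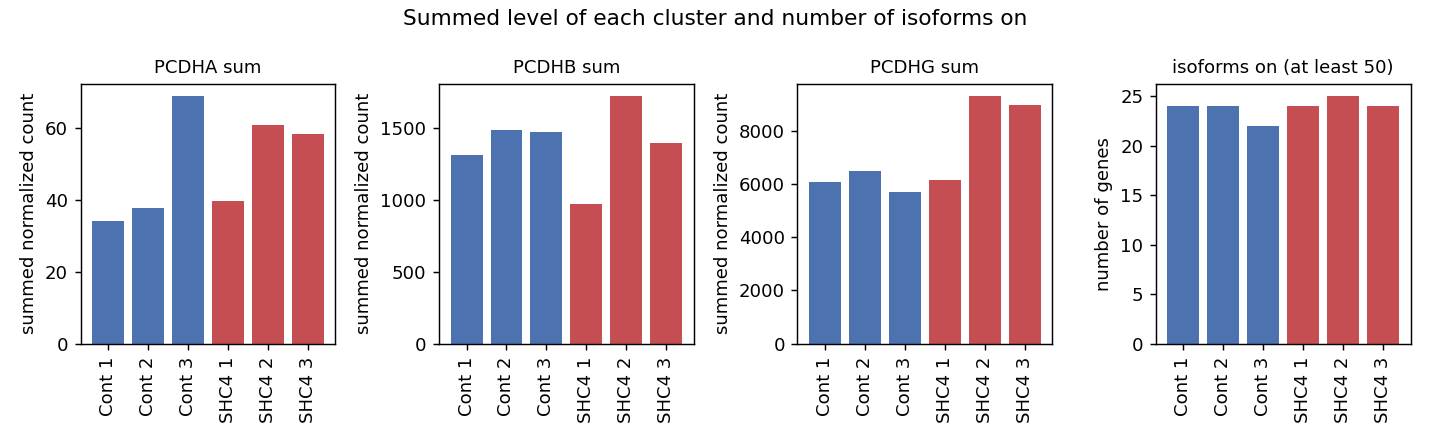
Summed normalized count of the members of each cluster, and number of members on (normalized count of at least 50), for each library. Blue bars are UE7T-9 Cont and red bars UE7T-9 SHC4. The PCDHG sum is highest in SHC4 2 and SHC4 3, the PCDHA and PCDHB sums overlap between groups, and the number on stays between 22 and 25.

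Member by member, the groups differed in degree, and PCDHGA10 was the only member called by limma, DESeq2 or edgeR with all libraries. Of the 45 members, 41 had a mean of at least 1 and were tested with limma. PCDHA4, PCDHA9, PCDHAC1 and PCDHAC2 were not. No member passed an adjusted p of 0.05 with an absolute log2 fold change above 1 in limma, where 0.0521% of 23040 genes were called higher and 0.00868% lower, and none passed in edgeR (0.0568% and 0.00631% of 15859 genes). DESeq2 called 1 of the 34 members to which it gave an adjusted p, PCDHGA10 (2.94%, against 1.05% of 16153 genes called higher), and 0 lower (1.15% of genes). With no fold threshold, DESeq2 passed PCDHGA10 and PCDHGB7, both higher, where 2.06% of genes passed as higher. At an unadjusted limma p below 0.05 there were 9 members of 41 (22.0%), against 14.4% of genes.

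PCDHGA10, an A-type isoform of the gamma cluster, was at 54.6, 88.3 and 44.3 in UE7T-9 Cont, on 56, 75 and 45 reads. In UE7T-9 SHC4 it was at 141, 193 and 214, on 160, 232 and 184 reads. Every UE7T-9 SHC4 library was above every UE7T-9 Cont library. The log2 fold change was 1.57 by limma, with a standard error of 0.29 and an adjusted p of 0.102. By DESeq2 it was 1.56 (standard error 0.33), with an adjusted p of 0.000328, and by edgeR also 1.56, with an adjusted p of 0.126. In limma it passed the threshold without Cont 1 (adjusted p = 0.0266), and over all alternatives its adjusted p ranged from 0.000328 to 0.536. Of the 100-base words in its unshared exon, 0.688% occurred in another gene, PCDHGA12, whose levels overlapped between groups.

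Beside PCDHGA10, 3 members did not overlap between groups and were higher in UE7T-9 SHC4, making 4 of 41 (9.76%, against 9.13% of all genes tested). PCDHGB7, the next gene along the chromosome, was at 484, 526 and 459 in the control line, and at 583, 997 and 994 with SHC4 overexpressed. SHC4 1 was close to the control libraries, and SHC4 2 and SHC4 3 were well above them. limma gave a log2 fold change of 0.77 (standard error 0.21) with an adjusted p of 0.184, and DESeq2 one of 0.81 with an adjusted p of 0.0259. Neither reached the fold threshold, and without SHC4 1 it passed in limma with a log2 fold change of 1.02 (adjusted p = 0.0416). Over all alternatives its adjusted p ranged from 0.0259 to 0.588.

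PCDHGB5 was at 882, 922 and 737 in the control line, and at 1136, 1010 and 1168 with SHC4 overexpressed, a log2 fold change of 0.39 (standard error 0.13, limma adjusted p = 0.249). PCDHGA7 was at 208, 207 and 212 in the control line, and at 222, 264 and 328 with SHC4 overexpressed (log2 fold change 0.36, standard error 0.18, limma adjusted p = 0.401). For both genes the groups lay close together, and PCDHGA7 overlapped when libraries were scaled by total reads. Of the 100-base words of PCDHGB5, 15.3% occurred in other genes, so its count may be less certain than that of PCDHGA7, which shared none.

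**Figure D3:**
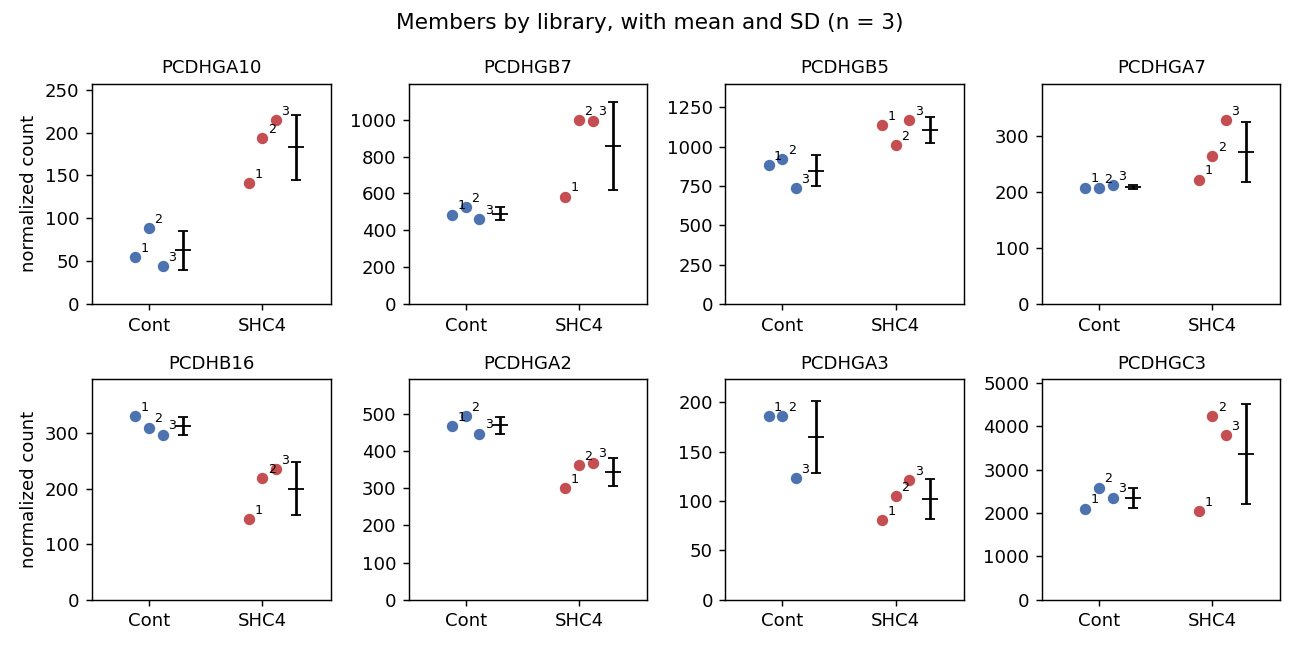
Normalized count in each library for the 7 members whose groups did not overlap, and for PCDHGC3. Numbers beside points are replicate numbers and bars are mean and SD (n = 3), and each vertical axis starts at 0. PCDHGA10 shows 44.3 to 88.3 in UE7T-9 Cont against 141 to 214 in UE7T-9 SHC4, whereas PCDHGC3 overlaps, with SHC4 1 below the control libraries.

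Another 3 of 41 members did not overlap and were lower in UE7T-9 SHC4 (7.32%, against 10.2% of genes). PCDHB16, a single-exon isoform of the beta cluster, was at 330, 310 and 297 in the control line, and at 145, 219 and 235 with SHC4 overexpressed. SHC4 1 was the lowest library, and the log2 fold change was -0.67 (standard error 0.20, limma adjusted p = 0.203). The other two were adjacent A-type genes of the gamma cluster. PCDHGA2 was at 467, 494 and 447 in the control line, and at 300, 363 and 369 with SHC4 overexpressed (log2 fold change -0.45, standard error 0.14, limma adjusted p = 0.216). PCDHGA3 was at 186, 186 and 123 in the control line, and at 80.9, 105 and 121 with SHC4 overexpressed (log2 fold change -0.68, standard error 0.24, limma adjusted p = 0.264). For PCDHGA3 the gap between the groups was narrow, with Cont 3 just above SHC4 3.

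Over the 41 tested members the log2 fold change was above 0 for 26 (63.4%, against 49.7% of genes) and below 0 for 15. Its median was 0.18 over all members, 0.38 over 4 PCDHA, 0.07 over 15 PCDHB and 0.28 over 22 PCDHG, beside -0.0040 over all genes tested. With libraries scaled by total reads, the median of all genes was -0.10, that of all members 0.09 and that of PCDHB -0.01, so the sign for PCDHB depended on the scaling. Within a cluster the members did not move one way: in PCDHG 15 values were above 0 and 7 below, in PCDHB 9 and 6, and in PCDHA 2 and 2. These counts and medians include shallow members, such as PCDHA2 on at most 3 reads and PCDHGC4 on at most 9 in a library. The PCDHA values were -0.13 (PCDHA1), 0.96 (PCDHA2), 0.90 (PCDHA7) and -0.19 (PCDHA10), all from nearly silent genes.

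**Figure D4:**
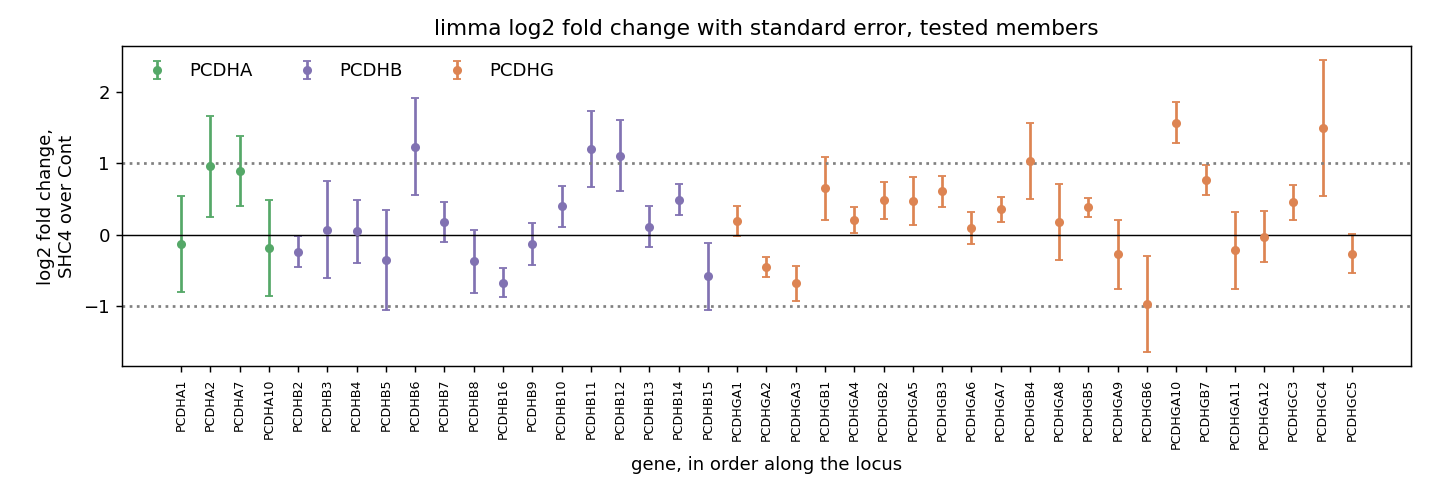
Log2 fold change (UE7T-9 SHC4 over UE7T-9 Cont) from limma for the 41 tested members in order along chromosome 5, with bars of 1 standard error. Dotted lines mark an absolute log2 fold change of 1. PCDHGA10 at 1.57 has the highest value, and the 5 other members above 1 (PCDHGC4, PCDHB6, PCDHB11, PCDHB12 and PCDHGB4) have standard errors of 0.50 to 0.95.

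How closely the libraries resembled each other depended on which members were counted. Over all 45 members, the Pearson correlation of log2(normalized count + 1) was 0.968 to 0.978 among SHC4 libraries, 0.927 to 0.946 among control libraries and 0.908 to 0.964 between groups, and each control library correlated best with an SHC4 library. Over the 26 members ever on, each control library instead correlated best with another control library, by a narrow margin for Cont 1. Cont 2 with Cont 3 was then at 0.945 (at most 0.939 and 0.849 with an SHC4 library), and Cont 1 with Cont 2 at 0.927 (0.927 also with SHC4 1). Among SHC4 libraries this measure ran from 0.902 to 0.956, within reach of the pairs between groups (0.781 to 0.939). By Spearman's rho over 45 members, Cont 3 was closest to Cont 2 (0.946), while Cont 1 and Cont 2 were closest to SHC4 libraries (0.958 and 0.966). Over all 23040 genes, Cont 1 was closest to SHC4 1 (0.974), and Cont 2 and Cont 3 were closest to each other (0.974). Under each of these measures every SHC4 library correlated best with another SHC4 library, whereas the closest library of each control library changed with the measure. The points are genes, which share libraries and a locus and are not independent replicates.

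Genes related to the clustered protocadherins by family, control, partners or position were read as lists, none of which held a gene called by limma or DESeq2. Of 12 non-clustered protocadherins, which have their own single loci, 8 were listed and 6 were tested, 2 above 0 and 4 below, with log2 fold changes from -0.94 to 0.72. Their median was -0.67, and -0.35 without Cont 2. PCDH9 had the smallest p, at 400, 519 and 510 in the control line, and at 224, 248 and 266 with SHC4 overexpressed. Its groups did not overlap, and its log2 fold change of -0.94 (standard error 0.16, limma adjusted p = 0.0840) was short of both thresholds in limma. DESeq2 gave an adjusted p of 0.000199 and a log2 fold change of -0.95, short of the fold threshold alone. PCDH10 was also lower without overlap, at 550, 777 and 760 in the control line, and at 502, 361 and 508 with SHC4 overexpressed. Its log2 fold change was -0.61 (standard error 0.19, limma adjusted p = 0.216). Of all genes tested, 10.2% were lower without overlap. No tested gene of this list was higher without overlap.

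All 24 genes of promoter choice, which include CTCF, the cohesin subunits and loaders and the DNA methylation enzymes, were tested (7 above 0 and 17 below). Their median was -0.07, and 0.014 without Cont 1. WAPL, which releases cohesin from DNA, had the smallest p (log2 fold change -0.42, standard error 0.15, limma adjusted p = 0.259). The groups of WAPL, SMC1A, STAG2, PDS5B and TET2 did not overlap and were lower in UE7T-9 SHC4 (10.2% of all genes tested did so). No gene of this list was higher without overlap. CTCF was at 1378, 1344 and 1386 in the control line, and at 1408, 1428 and 1383 with SHC4 overexpressed, and the groups overlapped. Of the 16 binding and signalling partners, 9 were above 0 and 7 below (median 0.05, or -0.051 with libraries scaled by total reads), and ABI1, a subunit of the WAVE actin-regulating complex, had the smallest p (log2 fold change 0.29, standard error 0.11, limma adjusted p = 0.304). Among the partners, ABI1 and CYFIP1 were higher and ABI2 was lower without overlap between groups. Of 14 genes flanking the clusters, 12 were tested (DND1 and SLC25A2 were not listed), 9 above 0 and 3 below, with a median of 0.14. FCHSD1 had the smallest p there (log2 fold change 0.35, standard error 0.13, limma adjusted p = 0.274). The groups of FCHSD1, NDUFA2, IK, HARS2, ZMAT2 and DIAPH1 did not overlap and were higher in UE7T-9 SHC4 (9.13% of all genes tested did so). No flanking gene was lower without overlap, and the log2 fold changes of the list were 0.35 at most. The relation of these shifts to the members was not tested.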

How the data were processed

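RNA of 3 UE7T-9 Cont and 3 UE7T-9 SHC4 libraries was sequenced, and samples were grouped by their titles. The authors deposited 1 signal value per gene and library, a read count divided by a size factor. The submitters' processing notes name HISAT2 2.0.5, featureCounts 1.5.0-p3 and DESeq2. The genome build, annotation and strand setting are not given in the sources used here, nor is the handling of reads in shared exons. Every value was a whole multiple of what 1 read is worth (100% whole within 0.01 reads), so read counts were recovered by division. Of the identifiers, 99.2% had a symbol, and positions and exons came from GENCODE 29 by identifier, promoters from RefSeq.

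limma 3.58.1 (lmFit, eBayes with trend, R 4.3.3) was run on log2(value + 1) for 23040 genes (mean value 1 or more), and p-values were adjusted over all of these by the Benjamini-Hochberg method. For low genes, log2 fold changes on this scale could be smaller or larger than those of DESeq2. That of PCDHA1 was -0.13 in limma and -0.38 in DESeq2. That of PCDHGC4 was 1.49 in limma and 0.68 in DESeq2 without its filters. DESeq2 1.42.0 and edgeR 4.0.16 were alternatives on recovered reads. Sums and numbers of isoforms on were compared with exact two-sided permutation tests over 20 assignments. The scripts were tested on simulated counts. Levels per kilobase used exon bases, over all annotated transcripts, that no other annotated gene on either strand shares. No pair of libraries agreed within sampling noise.

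Members named with values in every library were those called by any tool, those on in some library with groups that did not overlap, those on or off in exactly 1 library, the 3 highest of each cluster and the C-types. PCDHB12, PCDHB15, PCDHGB4 and PCDHGA12 were named after their values were seen. Members, lists and thresholds were chosen with earlier results of these data known. The motif words and the pseudogene list were chosen after the data and promoters were seen.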

Additional observations from a re-analysis of the deposited data

How the results depend on the processing

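Calls, the fold changes of members named by rule and the list medians were recomputed under other tests, scalings, filters and pseudocounts and without each library. Sums and numbers on were recomputed under other scalings or thresholds and without each library. Members whose groups do not overlap were recomputed under other scalings alone, and such genes of the lists were not recomputed. Library correlations, pseudogenes and PCDHB12, PCDHB15, PCDHGB4 and PCDHGA12 were not recomputed, and PCDHGC4 gave no value in edgeR, in DESeq2 with its filters or at a mean of at least 10. For the 16 named members that could be fitted, 233 of 237 alternative values stayed on their side of the threshold and 4 passed it, with PCDHGA10 under DESeq2 among them. Of the 237, 7 had the opposite sign, all without 1 library and all for PCDHA1, PCDHA10, PCDHB8 or PCDHGC5, none of them called. The number of members called higher, 0 in limma, was 1 in DESeq2 (PCDHGA10), with or without its filters (the latter an alternative added after seeing the data), and 0 to 1 without each library. The number called lower was 0 throughout. The members on in every library, 20, numbered 13 when on meant at least 100 (added after seeing the data) and 20 to 22 without each library. Library size scaling moved the median of all genes to -0.10, and the medians of the promoter choice factors to -0.17, the partners to -0.051 and the flanking genes to 0.037. Without each library these medians ran from -0.12 to 0.014, from -0.0071 to 0.074 and from 0.086 to 0.18, and that of the non-clustered protocadherins from -0.67 to -0.35. The log2 ratio of sums ran from -0.01 to 0.56 for PCDHA, -0.26 to 0.13 for PCDHB and 0.31 to 0.59 for PCDHG, and the difference in isoforms on from 0.33 to 1.33. Under TMM scaling 6 members did not overlap and were higher, against 4, with PCDHB14 and PCDHGB3 added. Under library size scaling 4 were higher, with PCDHGB3 in place of PCDHGA7. As deposited, PCDHGB3 overlapped narrowly, at 285 in Cont 1 against 283 in SHC4 1. The same 3 members were lower under each scaling. Libraries of the same replicate number were not treated as pairs, as their deviations from the group mean correlated weakly (0.15, 0.01 and -0.01 for numbers 1 to 3). Whether libraries of the same number share a batch is not stated, and Cont 1 was closest to SHC4 1 over all genes (0.974). With a replicate block 0 members were called, and PCDHGA10 had an adjusted p of 0.0612 in limma. Members under about 10 reads were too shallow for any of these comparisons, and counting error is only 1 part of their spread.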

Other observations

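The clusters also hold pseudogenes, of which 5 were listed. PCDHB18P was at 31.2, 25.9 and 22.6 in the control line, and at 5.27, 14.2 and 19.8 with SHC4 overexpressed. Its groups did not overlap, and its log2 fold change of -1.12 (standard error 0.50) had a limma adjusted p of 0.347. PCDHB19P reached 19.5 in Cont 1 and was at 11.6 or less in the other libraries. PCDHB17P and PCDHGB9P did not exceed 4.92 and 7.80. PCDHGB8P was at 0 in all 3 UE7T-9 Cont libraries and at 2.64, 1.66 and 1.16 in UE7T-9 SHC4, at or below 3 reads in each.

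Of the other protocadherins, PCDH18 had the highest values, at 4117, 2479 and 1670 in the control line, and at 3482, 4093 and 5401 with SHC4 overexpressed, with overlapping groups (limma adjusted p = 0.313). CDC42 (ENSG00000070831), a ubiquitous small GTPase of the partner list, was listed at only 4.71 to 19.3.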
